A study of Mus musculus with 56 samples.

Results

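NFAT factors and the calcineurin subunits were followed at the RNA level in CD8 T cells that recognise a fetal and graft antigen. The set holds 8 of the 55359 genes in the raw count table, picked by symbol: the transcription factors Nfatc1, Nfatc2, Nfatc3 and Nfat5, the calcineurin catalytic subunits Ppp3ca, Ppp3cb and Ppp3cc, and the calcineurin inhibitor Rcan1. Each symbol matched 1 Ensembl identifier. All 8 passed the filter on low counts.

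RNA-Seq (SmartSeq2, 200 sorted live cells per library) profiled the CD8 T cells that bind OVA:Kb, called TFGS (fetus- and graft-specific T cells), from spleen and pooled lymph nodes of individual female C57BL/6 mice aged 8 to 12 weeks when obtained. The fathers and the skin donors were 2W-OVA.BALB/c mice, which express the model antigen 2W-OVA from a transgene in all tissues. Naive mice had no graft and no pregnancy (3 mice). Sensitized mice had rejected a 2W-OVA.BALB/c skin graft and were not mated (4 mice). Naive mice taken at post-partum day 0 to 3 gave the sorted subsets N+P C1, which is PD1-, and N+P C5, which is PD1+CD73+ (3 mice each). Sensitized mice were mated at least 30 days after the graft and taken at the same post-partum days. They gave S+P C4 (PD1-, 6 samples), S+P C5 (PD1+CD73+, 6 samples) and S+P C7 (PD1+CD73-, 5 samples). The labels number 6 replicates in each of these groups, more than the number per group stated with the study, so whether each number is a separate mouse is not settled. If replicates 2 and 3, with 1 library each in every subset, are libraries of 1 mouse, p-values that use both are too small. The labels name no PD1 or CD73 gate for Naive and Sensitized TFGS. The study describes sorted subsets for each group, so whether these 2 were gated is not settled. A contrast of a C5 or C7 subset with them differs in both pregnancy and the labelled gate. For flow cytometry the study took Sensitized mice at least 30 days after the graft, when S+P mice were only mated. Time since the graft may therefore differ as well in contrasts of S+P subsets with Sensitized.

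Calcineurin is a phosphatase that calcium switches on after the T cell receptor is engaged. It removes phosphates from Nfatc1, Nfatc2 and Nfatc3, which then enter the nucleus and drive cytokine genes together with AP-1, and drive other target genes, among them inhibitory receptors, when AP-1 is scarce. Nfat5 shares the DNA-binding domain of the family but is not a calcineurin substrate, and is best known for the response to high salt. Much of this control acts on protein location, which RNA levels do not show.

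Rcan1 has long been used as a readout of the pathway, because its downstream start makes a short transcript that NFAT factors drive. The stretches before both RefSeq starts of Rcan1 are printed for that reason, up to the first annotated exon. The stretch before the start of Nfat5 is printed as well. The stretches lie on GRCm39 at chr16:92263163-92263307 (minus strand), chr16:92197080-92197216 (minus strand) and chr8:108019852-108020101 (plus strand). Both Rcan1 stretches lie inside the gene (chr16:92188840-92267755, minus strand), outside its annotated exons, and that of Nfat5 ends just before the gene (chr8:108020102-108106149, plus strand). Capitals mark the NFAT core GGAAA on either strand, which reads TTTCC on the opposite one.
Rcan1 upstream start: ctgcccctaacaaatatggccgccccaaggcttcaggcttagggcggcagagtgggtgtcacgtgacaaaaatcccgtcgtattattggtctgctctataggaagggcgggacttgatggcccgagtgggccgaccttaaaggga
Rcan1 downstream start: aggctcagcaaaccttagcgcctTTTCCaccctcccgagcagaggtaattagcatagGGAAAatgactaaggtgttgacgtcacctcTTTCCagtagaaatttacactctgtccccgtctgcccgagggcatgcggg
Nfat5 start: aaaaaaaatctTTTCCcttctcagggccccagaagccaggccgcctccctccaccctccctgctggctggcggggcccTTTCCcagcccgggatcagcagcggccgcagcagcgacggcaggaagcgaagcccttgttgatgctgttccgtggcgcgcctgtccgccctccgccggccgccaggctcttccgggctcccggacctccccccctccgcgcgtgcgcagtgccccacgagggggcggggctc

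In the 250 bases before each start, GGAAA was found 3 times at the downstream start of Rcan1, 0 times at its upstream start and 2 times at that of Nfat5. The AP-1 motif TGANTCA was found 1 time, at the downstream start of Rcan1, in the exon bases that are not printed. Of the 32851 RefSeq windows of this length, 55.6% held GGAAA and 6.75% held TGANTCA on either strand. RefSeq windows were at hand for 5 of the 8 members. Among those not printed, GGAAA was found in 2 of 2 windows of Nfatc2, 1 of 2 of Nfatc3 and 1 of 1 of Ppp3cb, and TGANTCA in 0. A match of letters is a description of the window and not a binding site. The count table gives 1 value per gene and does not split Rcan1 by start.

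The 56 libraries had 6636532 to 32625243 counts. Libraries from 1 mouse and subset were added up, which gave 30 samples of 15547934 to 54809406 counts. A library listed under both Naive replicate 1 and S+P C4 replicate 1 with identical counts was used for neither. Replicates 1 and 2 of S+P C7 each held a library that was almost the same as the other's (r = 0.997 across genes, where 25 other pairs from 1 mouse and subset reached at most 0.929). The mean of these 2 libraries was added to the other library of replicate 1, and the replicates were counted as 1 sample.

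3 samples stood apart with under 9000 detected genes: S+P C4 replicates 2 (8002 genes) and 3 (7436 genes) and S+P C7 replicate 3 (7879 genes). The other 27 samples had 12383 to 26805. Mitochondrial genes took 24.3% of counts in S+P C4 replicate 3, and the haemoglobin genes summed to 19860 CPM, the normalised count scaled to library size, in S+P C7 replicate 3. That sample is labelled PD1+ but held 0.0467 CPM of Pdcd1, the gene of PD1, where the other S+P C7 samples had 166 to 578. The main contrasts of the members that had an unadjusted p under 0.05 are given with and without these 3 samples. Their part in any result was not tested beyond that. S+P C7 replicates 4 (26805 genes) and 6 (21247 genes) had the most detected genes of S+P C7 and its lowest Nfatc1 levels, 143 and 191 CPM. With either left out, the log2 fold change of Nfatc1 in S+P C7 against Sensitized was 1.14 or 1.08, beside 1.00 with both.

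The sorted cells had the RNA of CD8 T cells. All 5 markers (Cd3d, Cd3e, Trac, Cd8a and Cd8b1) were detected in every group, with sums of 3764 to 7399 CPM and Cd8b1 the most abundant. Cd4 did not exceed 3.71 CPM in any sample, and it was at 0 in the N+P C1, N+P C5, Sensitized and S+P C5 samples. The B cell markers Cd79a and Ms4a1 reached at most 7.05 and 3.04 CPM in any sample. The NK list (Ncr1 and Klrb1c, mostly Klrb1c) had a median sum of 80.8 CPM in Sensitized and 4.51 in S+P C5, and 0 in Naive and 2.45 in N+P C5. In S+P C7 its median was 18.1 and its highest sum 328 CPM, in replicate 3, where the other samples had 3.55 to 67.4. Ncr1 reached 103 CPM in that S+P C7 sample, which has under 9000 detected genes, and at most 6.03 in the other groups. The myeloid list, led by Itgax, had medians of 64.2 in Sensitized and 14.0 in S+P C5, and a highest sum of 386 in Sensitized. Lyz2, a lysozyme of myeloid cells, reached 332 CPM in 1 Sensitized sample and was at 0 in all S+P C5 samples. Klrb1c and Itgax are also known on activated CD8 T cells. The gamma delta T cell list (Trgv2 and Trdc) had medians of 4.36 in Sensitized, 14.5 in S+P C5 and 30.9 CPM in S+P C7, mostly Trgv2, with Trdc at 0 in S+P C5. In S+P C4 its median was 20.4 CPM. Its highest sum, 305 CPM, was in S+P C4 replicate 2, which has under 9000 detected genes. The haemoglobin genes summed to 0 to 0.288 CPM in Naive and 3.34 to 149 in N+P C5, without overlap. These lists moved with the main contrasts, and their part in the results was not tested.

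The 8 genes covered a wide range of levels. Per kilobase of annotated exon, the mean over the 30 samples was highest for Nfatc1, at 26.8 CPM per kb. Ppp3cc followed at 17.0 and Nfatc3 at 14.0 CPM per kb. Ppp3cb (6.91), Ppp3ca (5.00), Nfat5 (4.68) and Nfatc2 (4.37) formed a lower tier on that scale, and Rcan1 was lowest at 1.15 CPM per kb. With the longest coding transcript as the length, Nfatc3 (33.7 CPM per kb) came before Ppp3cc (23.8), and Nfatc2 (6.85) before Nfat5 (6.47), so the order of these neighbours depends on the length used. Nfatc3, which shares 2626 exon bases with Esrp2 on the opposite strand, and Ppp3cc, which shares 1221 with Gm49417, could hold reads of those genes if strand was not used in counting. Esrp2 averaged 0.395 CPM and Gm49417 5.08 CPM.

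**Figure D1:**
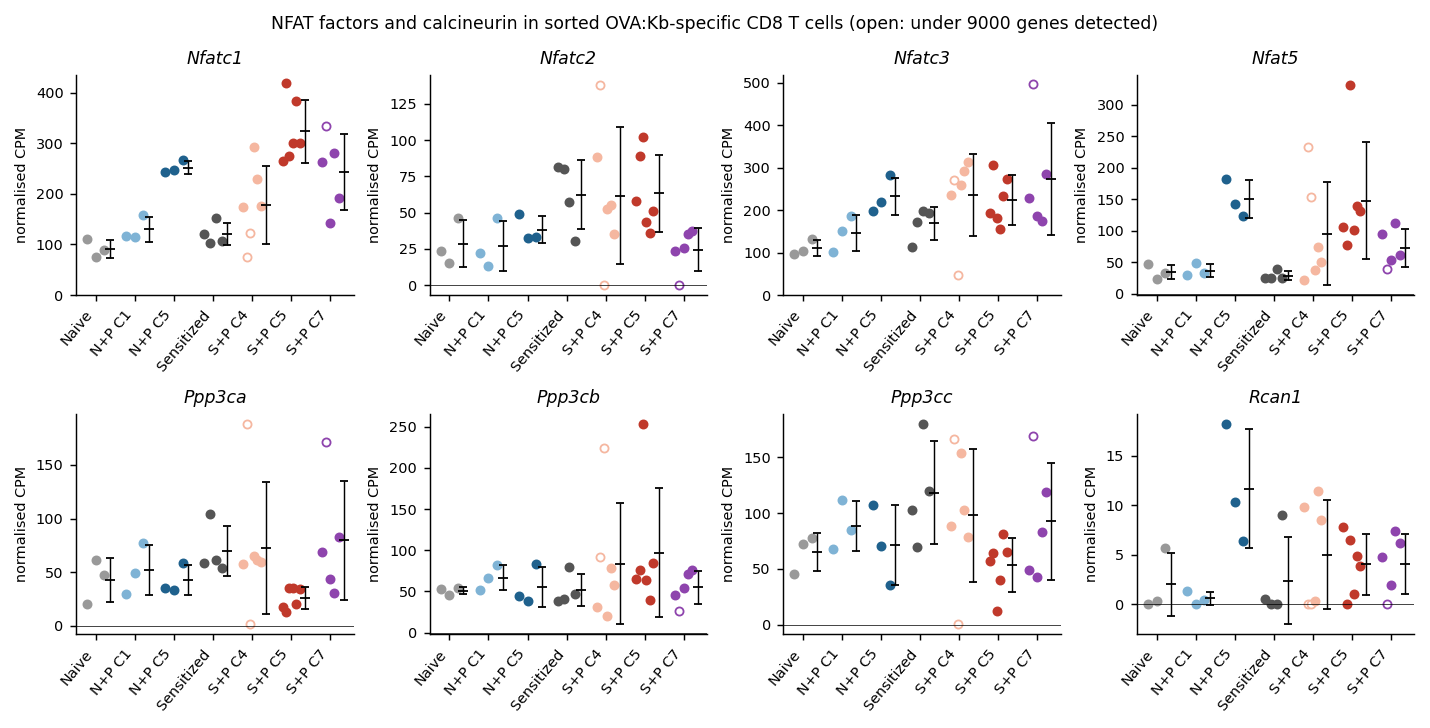
Normalised CPM of the 8 genes (y axis) by group (x axis). Each point is 1 sample, open points are the 3 samples with under 9000 detected genes, and the bar gives the mean ± SD. In Nfatc1 the 6 S+P C5 samples lie between 265 and 419 CPM and the 4 Sensitized samples between 104 and 152, while the Ppp3ca points of S+P C5 are all below those of Sensitized.

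Differential expression was tested with edgeR's quasi-likelihood test in 1 fit of all 7 groups, with Benjamini-Hochberg adjustment over the 19657 genes tested. A gene passed where the adjusted p was below 0.1 and the log2 fold change beyond 0.9 in either direction. None of the 8 members passed in any of the 11 contrasts of this fit. Few genes of the whole table did: 0.0407% in N+P C5 against Naive, 0.00509% in N+P C5 against N+P C1, 0% in N+P C1 against Naive and 0.153% in Sensitized against Naive. In sensitized mice 0.0712% passed in S+P C5 against Sensitized, 0.0305% in S+P C7 against Sensitized, 0.00509% in S+P C4 against Sensitized, 0.0305% in S+P C5 against S+P C4 and 0% in S+P C7 against S+P C5. The share was 0% in S+P C5 against N+P C5, and 0.0254% for the interaction, the change from Sensitized to S+P C5 less that from Naive to N+P C5.

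At an unadjusted p under 0.05 in edgeR, 3 members were higher in N+P C5 than in Naive (5.33% of all genes in either direction) and 2 higher than in N+P C1 (4.31%). In S+P C5 against Sensitized 2 were higher and 1 lower (13%), in S+P C7 against Sensitized 2 were higher (10.2%) and in S+P C4 against Sensitized 1 was higher (12.7%). Between subsets, 1 was higher and 1 lower in S+P C5 against S+P C4 (13.3%), and 1 was higher in S+P C7 against S+P C5 (12.7%). The count was 0 in Sensitized against Naive (7.82%), N+P C1 against Naive (3.23%), S+P C5 against N+P C5 (5.88%) and the interaction (6.42%). The members named by this level are Nfatc1, Nfat5, Nfatc3 and Ppp3ca.

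DESeq2 passed Nfatc1 and Nfat5 in N+P C5 against Naive (4.9% of genes) and also in the contrast of S+P C5 with Sensitized (5.32%). It passed Nfat5 in N+P C5 against N+P C1 (3.82%) and S+P C4 against Sensitized (4.53%), Nfatc1 in S+P C7 against Sensitized (3.49%), and 0 members in the other contrasts. Without the 3 samples with few detected genes edgeR passed Nfatc1 and Nfat5 in N+P C5 against Naive (0.614% of genes), these genes and Ppp3ca in the contrast of S+P C5 with Sensitized (1.02%), and Nfat5 in S+P C5 against S+P C4 (0.169%).

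Nfatc1, the factor that T cell activation is known to induce, was higher in the PD1+CD73+ cells of both kinds of post-partum mice. Naive samples had 110, 75.9 and 88.6 CPM, N+P C1 samples 117, 115 and 158, and N+P C5 samples 242, 247 and 266. The lowest N+P C5 sample stood above the highest of the other 2 groups. By library, N+P C5 (212 to 317 CPM) stood above Naive (63.4 to 101) but overlapped with N+P C1 (74.6 to 223). Sensitized samples had 121, 104, 152 and 108 CPM, and the 6 S+P C5 samples ranged from 265 to 419 with a median of 300.3. S+P C5 and Sensitized did not overlap either, and the same held library by library (237 to 440 CPM against 79.2 to 165). S+P C4 ranged from 74.5 to 292 CPM and S+P C7 from 143 to 334, and both overlapped with S+P C5 and with Sensitized. Within each replicate number, taken as 1 mouse, S+P C5 was above S+P C4, a description of signs and not a test. The overlap of S+P C4 with Sensitized came from the doubted replicates 2 and 3, at 74.5 and 122 CPM, and the other 4 samples (173, 292, 230 and 177) lay above all Sensitized samples.

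N+P C5 had a mean Nfatc1 level of 252 ± 12.6 CPM and Naive of 91.6 ± 17.4 (SD, n = 3 each). The log2 fold change was 1.46 (SE 0.43; p = 0.00189, adjusted p = 0.667 in edgeR). Without the 3 doubted samples, none of which is in these groups, it was 1.48 (SE 0.27) with an adjusted p of 0.00493. S+P C5 and Sensitized had means of 324 ± 62.4 (n = 6) and 121 ± 21.9 CPM (n = 4). Their log2 fold change was 1.42 (SE 0.35; p = 0.000308, adjusted p = 0.205), and 1.44 (SE 0.22) with an adjusted p of 0.000655 without those samples. These are 2.75-fold and 2.67-fold differences, and their size hardly moved while the adjusted p crossed the threshold. The interaction was -0.04 (SE 0.54, p = 0.942). With S+P C5 replicate 2 or 3 left out the second log2 fold change was 1.34 or 1.47.

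Nfatc1 in the other contrasts was less far apart. Between subsets of the same mice it was 0.96 (SE 0.43, p = 0.0318) in N+P C5 against N+P C1, and 0.86 (SE 0.30, p = 0.00726) in S+P C5 against S+P C4 on the log2 scale. The PD1+CD73- cells, S+P C7, were at 1.00 (SE 0.35, p = 0.00798) against Sensitized. The adjusted p in edgeR was 0.919, 0.297 and 0.473. Without the 3 doubted samples the values were 0.96 (adjusted p = 0.379), 0.56 (adjusted p = 0.341) and 0.86 (adjusted p = 0.165), so the contrast of S+P C5 with S+P C4 was smaller without S+P C4 replicates 2 and 3. S+P C4 against Sensitized went from 0.56 (SE 0.34, p = 0.110, adjusted p = 0.588 in edgeR) to 0.88 (SE 0.23, p = 0.000745, adjusted p = 0.433) without the doubted samples. S+P C5 and N+P C5 differed by 0.36 (SE 0.37, p = 0.334). By mean level the order was S+P C5, N+P C5, S+P C7, S+P C4, N+P C1, Sensitized and Naive, and the ranges of all neighbours in it overlapped.

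Nfat5 had the largest fold in both main contrasts among the members other than Rcan1, for which no fold is given. Naive samples had 47.1, 24.0 and 32.6 CPM, N+P C1 samples 29.8, 48.2 and 32.8, and N+P C5 samples 183, 143 and 124. Sensitized samples had 25.6, 24.6, 39 and 24.6 CPM, and S+P C5 samples 76.7 to 332 with a median of 118. Neither C5 subset overlapped with the unmated group it is set against. At 332 CPM, S+P C5 replicate 3, which rests on 1 library, was far above the other 5 samples, the highest of which had 140.

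N+P C5 had a mean Nfat5 level of 150 ± 29.9 CPM and Naive of 34.6 ± 11.7 (n = 3 each). The log2 fold change was 2.12 (SE 0.72; p = 0.00581, adjusted p = 0.765 in edgeR). S+P C5 averaged 148 ± 93.1 (n = 6) and Sensitized 28.5 ± 7.04 CPM (n = 4). Their log2 fold change was 2.38 (SE 0.60; p = 0.000382, adjusted p = 0.234). Without the 3 samples with few detected genes the values were 2.14 (SE 0.47, adjusted p = 0.0298) and 2.41 (SE 0.40, adjusted p = 0.00142). N+P C5 was also above N+P C1, with no overlap, at 2.02 (SE 0.71, p = 0.00791, adjusted p = 0.919), and at 2.03 (SE 0.47, adjusted p = 0.134) without those samples. With S+P C5 replicate 2 or 3 left out, S+P C5 against Sensitized gave 2.51 or 1.97. The interaction was 0.26 (SE 0.88, p = 0.770), and S+P C5 and N+P C5 differed by -0.02 (SE 0.59, p = 0.972).

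In the PD1- cells of sensitized post-partum mice the level of Nfat5 turned on the doubted samples. S+P C4 replicates 2 and 3 had 232 and 154 CPM, and the other 4 had 22.7, 37.7, 74.9 and 50.6. S+P C4 against Sensitized gave 1.74 (SE 0.58, p = 0.00510, adjusted p = 0.317) with all samples and 0.75 (SE 0.40, adjusted p = 0.464) without them. In the opposite direction, S+P C5 against S+P C4 went from 0.63 (SE 0.49, adjusted p = 0.704) to 1.66 (SE 0.38, adjusted p = 0.0958), which passed. S+P C7 samples had 94.9, 39.1, 54.0, 112 and 61.0 CPM, where the second is the doubted one and lies just above the highest Sensitized sample. Against Sensitized the log2 fold change was 1.34 (SE 0.58, p = 0.0280, adjusted p = 0.473), and 1.51 (SE 0.40, adjusted p = 0.161) without that sample and those of S+P C4. Within each replicate number S+P C7 was below S+P C5, a description of signs and not a test.

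**Figure D2:**
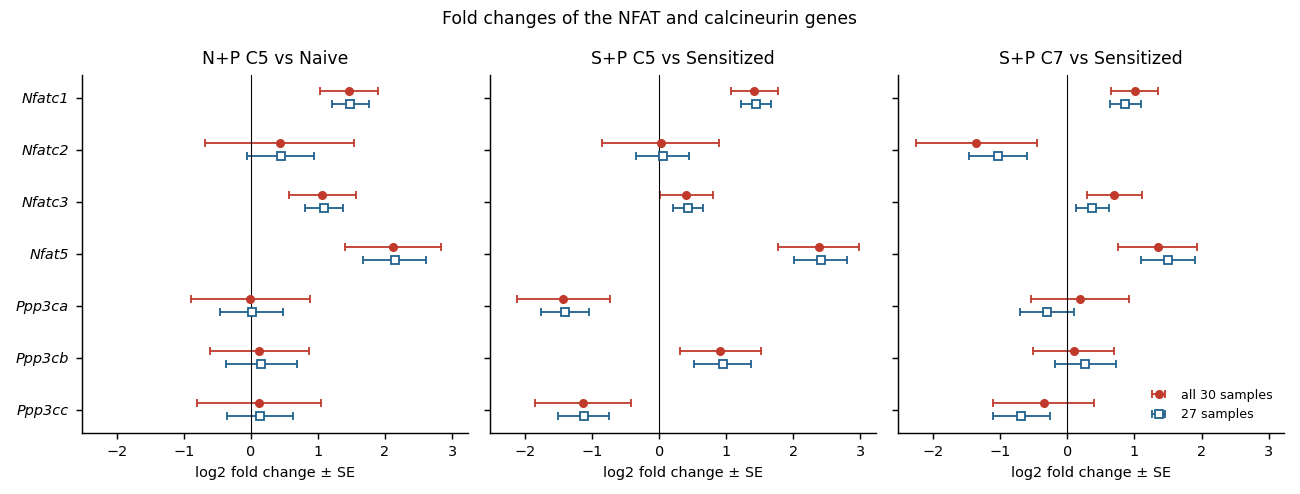
Log2 fold change ± SE (x axis) of 7 members (y axis) in 3 contrasts, from the edgeR fit of all 30 samples (circles) and of the 27 samples with over 9000 detected genes (squares). Rcan1 is left out because its levels include samples at 0. Nfatc1 and Nfat5 lie to the right of 0 in each panel, at 1.42 and 2.38 in S+P C5 against Sensitized, and Ppp3ca lies to the left at -1.43 in that panel.

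Nfatc3, another calcineurin-controlled factor, had 96.5, 104 and 133 CPM in Naive and 198, 218 and 282 in N+P C5 samples. The groups did not overlap, and the log2 fold change was 1.07 (SE 0.50; p = 0.0399, adjusted p = 0.765 in edgeR). Without the doubted samples it was 1.09 (SE 0.29) with an adjusted p of 0.108, still short of the threshold. In S+P C5 (155 to 307 CPM, median 214) and Sensitized samples (113, 172, 198 and 194 CPM) Nfatc3 overlapped, at 0.41 (SE 0.39, p = 0.310). The interaction was -0.66 (SE 0.63, p = 0.300), so the contrasts were not shown to differ. S+P C4 samples had 236, 272, 46.5, 259, 292 and 314 CPM. Only the doubted replicate 3, at 46.5 CPM, was not above all Sensitized samples. S+P C4 against Sensitized gave 0.49 (SE 0.39, p = 0.228, adjusted p = 0.817 in edgeR). Without the doubted samples it was 0.73 (SE 0.25, p = 0.00597, adjusted p = 0.433).

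Nfatc2, the factor that is present before activation, overlapped between the groups of both main contrasts. Its means were 28.5 ± 16.1 CPM (n = 3) in Naive, 38.3 ± 9.15 (n = 3) in N+P C5, 62.4 ± 23.8 (n = 4) in Sensitized and 63.3 ± 26.5 (n = 6) in S+P C5. The lowest mean was 24.4 ± 14.8 CPM (n = 5) in S+P C7, where the doubted replicate 3 had 0.140 CPM and the others 23.3 to 37.3. No contrast of Nfatc2 had an unadjusted p under 0.05 in the fit of all samples. Without the doubted samples 3 did, none of which passed after adjustment in edgeR: Sensitized against Naive at 1.12 (p = 0.0272, adjusted p = 0.472), S+P C7 against Sensitized at -1.03 (p = 0.0250, adjusted p = 0.408) and S+P C7 against S+P C5 at -1.08 (p = 0.0128, adjusted p = 0.279).

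Among the calcineurin catalytic subunits Ppp3ca stood apart in S+P C5. Its CPM was 58.8, 105, 61.2 and 54.0 in Sensitized samples and 13.1 to 35.2, with a median of 27.2, in the 6 S+P C5 samples. Every S+P C5 sample was below every Sensitized sample. Single libraries overlapped, at 12.8 to 51.4 CPM in S+P C5 and 41.9 to 112 in Sensitized. The means were 25.8 ± 10.1 (n = 6) and 69.6 ± 23.5 CPM (n = 4). The log2 fold change was -1.43 (SE 0.69; p = 0.0472, adjusted p = 0.377 in edgeR), and -1.40 (SE 0.36, adjusted p = 0.0744) without the 3 doubted samples, which passed.

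Ppp3ca in S+P C5 was also below the other subsets of the same mice on average. S+P C4 samples had 58.0, 188, 1.19, 65.3, 61.7 and 59.3 CPM, of which those with 188 and 1.19 are the doubted samples, and the log2 fold change of S+P C5 against S+P C4 was -1.48 (SE 0.64, p = 0.0271, adjusted p = 0.309). S+P C7 samples had 69.0, 172, 43.6, 30.9 and 82.5 CPM, and S+P C7 against S+P C5 gave 1.62 (SE 0.66, p = 0.0203, adjusted p = 0.281). Without the doubted samples these were -1.24 (adjusted p = 0.231) and 1.10 (adjusted p = 0.279). Within each replicate number S+P C7 was above S+P C5. S+P C5 was below S+P C4 in each number but the doubted replicate 3. These are signs and not a test. In naive mice Ppp3ca was at 42.7 ± 20.5 CPM in Naive and 42.4 ± 14.2 in N+P C5 (n = 3 each; log2 fold change -0.01, SE 0.89). The interaction was -1.42 (SE 1.13, p = 0.219), and without the doubted samples -1.41 (SE 0.59, p = 0.0247, adjusted p = 0.528).

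The other catalytic subunits did not pass. Ppp3cc had 118 ± 46.2 CPM (n = 4) in Sensitized and 53.5 ± 24.3 (n = 6) in S+P C5. Its log2 fold change was -1.14 (SE 0.72, p = 0.121), and -1.13 (SE 0.38, p = 0.00671, adjusted p = 0.202) without the doubted samples. Ppp3cb had 51.5 ± 19.4 and 97.0 ± 78.2 CPM in the same groups, with a log2 fold change of 0.91 (SE 0.60, p = 0.139), and 0.94 (SE 0.43, p = 0.0371, adjusted p = 0.258) without them. The S+P C5 mean of Ppp3cb was raised by replicate 3, with 254 CPM where the other 5 samples had 39.6 to 84.3. Over the 30 samples Pearson's r of log2(CPM + 1) was 0.76 between Ppp3ca and Ppp3cc and -0.65 between Ppp3cb and Ppp3cc, a description across samples that share mice and groups and include the doubted ones.

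Rcan1, which binds calcineurin and inhibits it, was at the edge of detection. Naive samples had 0, 0.365 and 5.67 CPM and N+P C1 samples 1.33, 0 and 0.459. N+P C5 samples had 18.2, 10.3 and 6.42 CPM, all above these groups. Sensitized samples had 0.521, 0, 0.0303 and 9.01 CPM, and S+P C5 samples 0 to 7.81 with a median of 4.40, so these overlapped. S+P C4 had a median of 4.44 and S+P C7 of 4.78 CPM. In N+P C5 against Naive the edgeR p was 0.318, and 7 of the 30 samples were at 0, so no fold change is given for Rcan1.

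Libraries of 200 cells from the same mouse and subset were compared with each other. Over 22 pairs, the SD between libraries was 0.32 on the log2(CPM + 1) scale for Nfatc1 and 0.33 for Nfatc3, below their SD between samples of a group (0.42 and 0.61). For Nfat5 it was 1.10 against 0.75. These SDs are not on equal terms. That between libraries is of single libraries scaled to their own total, none from a doubted sample. That between samples is of normalised samples, most of 2 summed libraries, and includes the doubted ones, such as S+P C4 replicate 3 with 46.5 CPM of Nfatc3. In Sensitized replicate 2 the libraries held 0.286 and 73.5 CPM of Nfat5, a wider gap than any between the summed Sensitized samples. All 10 S+P C5 libraries (80.6 to 391 CPM) were above all 8 Sensitized libraries (0.286 to 73.5), and all 6 N+P C5 libraries (110 to 234) above the 5 Naive ones (9.69 to 48.1). Rcan1 was at 0 in only 1 of both libraries in 11 of the 22 pairs, and 1 N+P C5 library was at 0 as well.

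**Figure D3:**
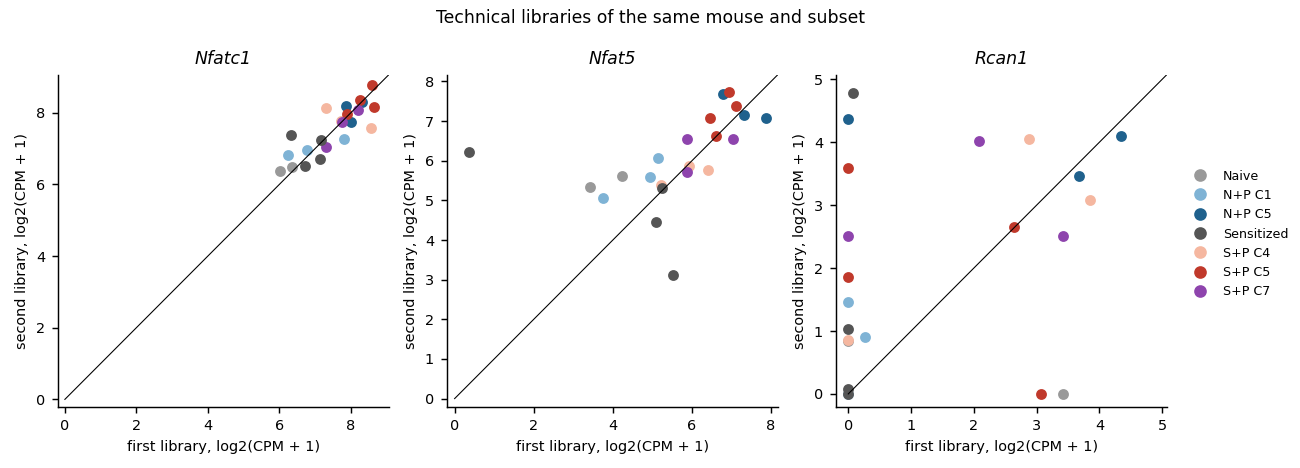
Log2(CPM + 1), by library total, in the first (x axis) and second (y axis) technical library of the same mouse and subset, for Nfatc1, Nfat5 and Rcan1. Each point is 1 of 22 pairs, coloured by group, and the line marks equal values. Nfatc1 points stay near the line, 1 Sensitized pair of Nfat5 holds 0.286 and 73.5 CPM, and 11 Rcan1 pairs lie on an axis with 0 in 1 library only.

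Groups that do not overlap were counted across the members. In N+P C5 against Naive 4 of 8 (Nfatc1, Nfatc3, Nfat5 and Rcan1) were higher in every sample, where 7.4% of the 19657 genes were. The same 4 were higher in N+P C5 than in N+P C1, where 5.48% of genes were. In S+P C5 against Sensitized 2 members were higher (1.45% of genes) and 1 was lower (1.42%). Of the 7 members other than Rcan1, the middle log2 fold change was that of Nfatc2, 0.43, in N+P C5 against Naive, and that of Nfatc3, 0.41, when S+P C5 was set against Sensitized, beside 0.00 and -0.01 over all genes tested. In Sensitized against Naive no member separated the groups, where 7.59% of genes did. In N+P C1 against Naive 1 member, Nfatc1, was higher (4.22% of genes), and in S+P C7 against Sensitized 1, Nfat5 (0.773%). These are counts over samples and not tests.

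The make-up of the NFAT family, as the share of Nfatc1 in the summed CPM per kb of Nfatc1, Nfatc2 and Nfatc3, was set beside these levels, since a share does not depend on how a sample is scaled. Nfatc1 made up 51.2%, 41.8%, 51.8% and 47.1% in the 4 Sensitized samples and 62.4% to 73.1% in the 6 S+P C5 samples, with no overlap. The means were 48.0% ± 4.60 (SD, n = 4) and 67.1% ± 4.69 (n = 6), a difference of 19.1 percentage points (exact permutation test, two-sided, p = 0.00952, adjusted over 4 such tests p = 0.0317). In S+P C7 the share was 60.6% ± 7.80 (n = 5; difference 12.6 points, exact permutation p = 0.0159, adjusted p = 0.0317). The levels of Nfatc1 itself entered both this share and the contrasts above, so the results are not independent of each other. Naive samples had 54.5% ± 7.90 and N+P C5 samples 63.4% ± 1.79 (n = 3 each), which cannot go below an exact p of 0.1 and were not tested.

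Ppp3ca made up 19.2% ± 10.2 (n = 4) of the calcineurin catalytic subunits in Sensitized and 10.3% ± 4.43 (n = 6) in S+P C5. The difference of -8.87 points had an exact permutation p of 0.0952 (adjusted p = 0.127), and whether it passed 0.1 depended on single choices. It was -15.2 points with CPM in place of CPM per kb (exact permutation, adjusted p = 0.0635), and -3.97 points without Sensitized replicate 2 (adjusted p = 0.238). Without Sensitized replicate 3 it was -11.6 points (adjusted p = 0.0952) and without S+P C5 replicate 4 -10.4 points (adjusted p = 0.0423). S+P C7, at 22.02% ± 8.10 (n = 5), had an exact permutation p of 0.651. In Naive and N+P C5 the share was 16.6% ± 5.44 and 16.7% ± 7.58. Ppp3cc held the largest share in all groups by the mean, from 50.2% in S+P C5 to 66.5% in Sensitized, with exon overlap to Gm49417 as given above.

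**Figure D4:**
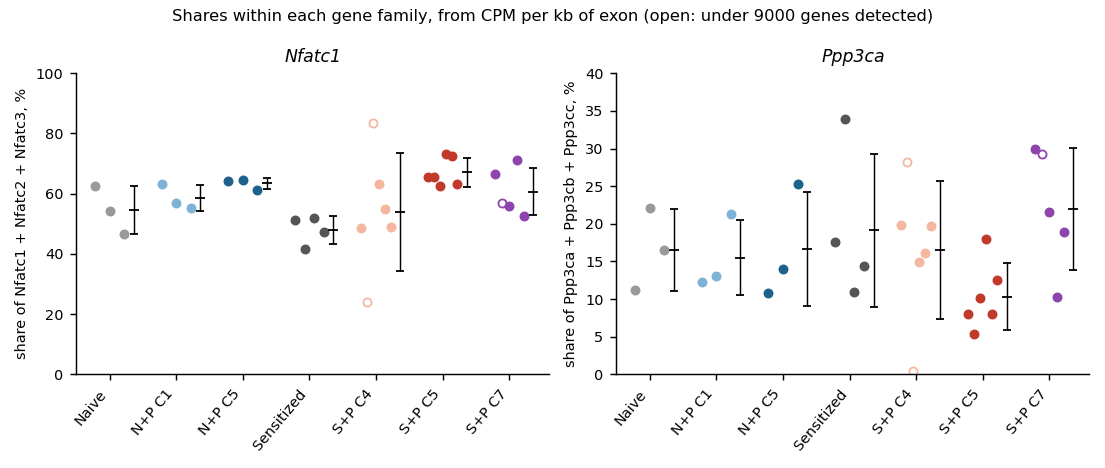
Share (y axis, %) of Nfatc1 in the summed CPM per kb of Nfatc1, Nfatc2 and Nfatc3 and of Ppp3ca in that of the 3 catalytic subunits, by group (x axis). Points are samples, open points the 3 with under 9000 detected genes, and bars the mean ± SD. The Nfatc1 share is above 62% in the 6 S+P C5 samples and below 52% in the 4 Sensitized samples.

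The rest of the pathway was read from lists of genes, which were chosen with earlier results of these data known. The calcium entry list took in, among others, Plcg1, the inositol trisphosphate receptors, the store sensors Stim1 and Stim2 and the Orai channels, and all 12 genes were tested. None passed in N+P C5 against Naive or S+P C5 against Sensitized, and none had an unadjusted p under 0.05 there in edgeR. The median log2 fold change was 0.10 in each. Over all samples the sensor Stim1 (10.99 CPM per kb) and the channel Orai1 (10.1) lay close together per length.

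Of the calcineurin regulators and immunophilins 6 of 8 were tested, with median log2 fold changes of 0.07 and 0.16. The regulatory subunit Ppp3r1 averaged 17.0 CPM per kb, while its relative Ppp3r2 was at 0 in 28 of the 30 samples. Ppia, the cyclophilin that cyclosporin binds, had an unadjusted p of 0.0182 in N+P C5 against Naive, at -0.93 on the log2 scale (SE 0.37, adjusted p = 0.765 in edgeR). It was named after its value had been seen. The kinases that return NFAT to the cytoplasm, with the exporter Xpo1 and the retention factors (11 of 12 tested), had medians of 0.50 and -0.10 and no gene past either level. Gsk3b (21.7 CPM per kb) and Csnk1a1 (21.2) led that list.

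AP-1 partners (7 of 9 tested) had medians of -0.14 and -0.16, and the osmotic-stress targets of Nfat5 (4 of 5 tested) of 0.39 and 0.07, with 0 genes under an unadjusted p of 0.05 in either contrast. Those tested were Slc5a3, Slc6a6, Akr1b1 and Slc38a2, transporters and an enzyme that serve the response to high salt. Slc5a3, the inositol transporter, was at 65.6 CPM on average in S+P C5 and 11.6 in Sensitized, with a log2 fold change of 2.50 (SE 1.44, p = 0.0917, adjusted p = 0.531 in edgeR), named after its value had been seen. Junb (275 CPM per kb) and Fos (178) were the most abundant AP-1 genes.

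NFAT targets had the largest median fold of the 6 pathway lists in both main contrasts. This list, too, was chosen with earlier results known. It holds Tox, Pdcd1 and Ctla4, which the study reported as raised by pregnancy, so its medians are a description and not a test. Il21, Il2 and Havcr2 were near 0 in Naive (means of 0.0110, 0.134 and 0.189 CPM), so their folds in N+P C5 against Naive are uncertain. The 16 genes had a median log2 fold change of 2.44 in N+P C5 against Naive, and of 2.40 when S+P C5 was set against Sensitized, where 6 genes in each were higher at an unadjusted p under 0.05, beside 3.23% and 5.26% of all genes. With Il21, at 0 in all Sensitized samples, set to its lower bound the second median was the same. In S+P C5 against Sensitized 1 was lower at that level, Fasl. Past both thresholds were 0 in the first contrast and 1, Tox, in the second. Without the 3 samples with few detected genes 3 passed in the first (Ifng, Pdcd1 and Ctla4) and 5 in the second (Tox, Pdcd1, Ctla4, Irf4 and Il21), named after their values had been seen. Pdcd1 encodes PD1, by which the subsets were sorted, so its difference cannot be told apart from the gate. These genes also answer to other factors.

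The targets with the smallest p in N+P C5 against Naive were the cytokine Ifng, Pdcd1 and the death ligand Fasl. Ifng was at 155, 48.1 and 60.8 CPM in N+P C5 and 5.19, 4.90 and 0.0756 in Naive samples, a log2 fold change of 4.70 (SE 1.11, p = 0.000185, adjusted p = 0.182 in edgeR). Fasl was at 107, 36.4 and 16.3 against 4.82, 0.0331 and 5.29 CPM (3.98, SE 1.22, adjusted p = 0.765). Neither overlapped. Both genes were high in Sensitized TFGS as well, and rose there against Naive, by 4.84 (SE 1.10, adjusted p = 0.0826) for Ifng and 6.12 (SE 1.33, adjusted p = 0.0566) for Fasl.

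In S+P C5 against Sensitized Tox, Il21 and Irf4 had the smallest p. Tox, a nuclear factor of chronically stimulated T cells, rose from 43.4 to 394 CPM on average (log2 fold change 3.18, SE 0.53, adjusted p = 0.0118), and in S+P C7 to 352 CPM (3.02, SE 0.53, adjusted p = 0.0191). Il21, a helper cytokine, had 0 counts in all 4 Sensitized samples and 28.0 ± 19.4 CPM (n = 6) in S+P C5, at least 300.02-fold above the mean floor of 3 counts per Sensitized sample (adjusted p = 0.255). Irf4, a factor induced with receptor strength, was at 4.59 and 76.0 CPM on average (4.05, SE 1.54, adjusted p = 0.277). Fasl went the other way, at 62.5 against 235 CPM (-1.91, SE 0.84, p = 0.0306, adjusted p = 0.319). The interaction was -5.89 for Fasl (SE 1.49, p = 0.000400, adjusted p = 0.491 in edgeR) and -4.12 for Ifng (SE 1.26, p = 0.00253, adjusted p = 0.649). Neither passed, and so a difference from naive mice was not shown. These values of Fasl and Ifng were picked after they had been seen.

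**Figure D5:**
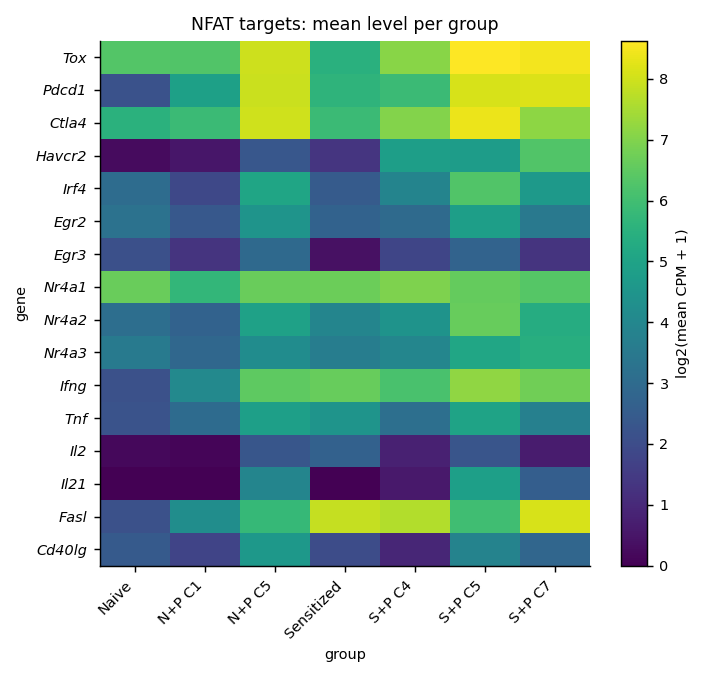
Mean level of 16 NFAT targets (rows) in the 7 groups (columns), as log2 of the mean CPM + 1, from dark (0) to bright (high). Tox is brightest in S+P C5 and S+P C7 (means of 394 and 352 CPM against 43.4 in Sensitized), Il21 is dark outside N+P C5, S+P C5 and S+P C7, and Fasl is bright in Sensitized at 235 CPM.

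Genes with the pattern most like each member were taken from 8264 genes with a mean of at least 10 CPM, by Pearson's r of log2(CPM + 1) over the 30 samples. Nfatc1 went with the adhesion molecule Alcam (r = 0.88) and the phosphatase Ptpn13 (0.88), and Nfat5 with the kinases Nek7 (0.76) and Prkca (0.75). For Ppp3ca these were Tram1 (0.86) and Pik3r5 (0.84), for Ppp3cb Hipk1 (0.80) and Tlk1 (0.72), and for Ppp3cc AB124611 (0.89) and Sppl2a (0.88). Nfatc2 had 1110038F14Rik (0.91) and Gatad1 (0.90), Nfatc3 Atxn1 (0.82) and Gm44175 (0.81), and Rcan1 Gzf1 (0.77) and Gpsm1 (0.70). The samples share groups, mice and depth, and the highest of many correlations is high by selection. In bulk samples a higher level in all cells and a larger share of cells with the gene cannot be told apart, for these genes and for the members alike.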

How the data were processed

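RNA-Seq counts of 56 libraries of 200 sorted TFGS each were used. The authors deposited raw counts per gene, made with Cutadapt 3.4, STAR 2.6.1b on GRCm39 (reads with several places removed) and featureCounts 2.0.1, as the submitters' processing notes and the paper name them. The strand option and annotation release are not given in the sources used here. Libraries were made by PCR in 1 sequencing run from 2 independent experiments, without molecular identifiers, so the floor of 3 counts covers counting error only. Symbols, positions and exon lengths came from GENCODE M39 (54749 of 55359 genes matched), promoter windows from RefSeq, placed on GRCm39 by sequence.

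Technical libraries were summed per replicate number and subset. For 4 libraries of S+P replicates 2 and 3 the column name ended in another letter than the label, and each was matched as the only library of its replicate and subset. CPM were TMM-normalised. edgeR 4.0.16 (R 4.3.3) was run with a minimum count of 10, a robust quasi-likelihood fit and two-sided tests. SE is the absolute log2 fold change over the square root of F. The study used DESeq2, here an alternative (1.42.0). Exact permutation tests used scipy 1.17.1 under Python 3.11.15. The pipeline was tested on simulated data.

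The members and the gene lists were chosen with earlier results of these data known. Fold changes are given for members with an unadjusted p under 0.05 in a contrast and for Nfatc1 and Nfat5 in the 2 main ones, with some others for comparison. Fold changes of list genes are given when past both thresholds, or as the 3 smallest p of a main contrast. Those of Ppia and Slc5a3 are given after their values had been seen. The same holds for Fasl in S+P C5 against Sensitized and for the interactions of Fasl and Ifng, which met neither rule. Other list genes are named to describe a list or its levels. Like genes are the 2 with the highest r. Subsets with the same replicate number in the labels and columns were taken as 1 mouse; replicates 2 and 3 of S+P also correlated with each other across subsets, by 0.0766 to 0.212. Residuals of subsets with the same number correlated by 0.0749 (N+P C5 and C1), 0.139 (S+P C5 and C4) and 0.157 (S+P C7 and C5) on average, against -0.0374 to -0.0188 for different numbers. Residuals were centred within groups, which lowers the average for different numbers. Single pairs of different numbers reached 0.157 (S+P C5 and C4) and 0.222 (S+P C7 and C4). Same numbers there had 0.0974 to 0.182 and 0.120 to 0.261, so the ranges overlapped. Some list genes are not reported here by name.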

Additional observations from a re-analysis of the deposited data

Results flagged for a closer look

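In 32 gene and group combinations of 4 to 10 samples, 8 held a sample far from the rest of its group, by its gap to the next sample over the range of the group, and chance flags about 1 in 20. In S+P C4 these were Nfatc3 at 46.5 CPM and Ppp3cb at 224 CPM in replicate 3, and Ppp3ca at 188 CPM in replicate 2, which are samples with under 9000 detected genes. In S+P C5 replicate 3, of 1 library, Nfat5 stood apart at 332 CPM and Ppp3cb at 254 CPM. In Sensitized samples Nfat5 stood apart at 39 CPM in replicate 3, Ppp3ca at 105 CPM in replicate 2 and Rcan1 at 9.01 CPM in replicate 4. The lone high values of Nfat5 and Ppp3cb thus fell in the same sample of S+P C5.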

How the results depend on the processing

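The count of members past the threshold was 0 in each of the 11 contrasts under RLE scaling, without the low-count filter, with all 56 columns kept, at an adjusted p under 0.05 and with any 1 sample left out. DESeq2 passed 2 members (Nfatc1 and Nfat5) in N+P C5 against Naive, 2 (the same) when S+P C5 was set against Sensitized, and 1 each in N+P C5 against N+P C1 (Nfat5), S+P C4 against Sensitized (Nfat5) and S+P C7 against Sensitized (Nfatc1). With only the groups compared in the fit the counts were 2, 2 and 1 in the first 3 of these. The genes of the whole table that passed there were 57, 142 and 51, beside 8, 14 and 1 in the main fit. Without the samples with under 9000 detected genes they were 2 in N+P C5 against Naive, 3 in S+P C5 against Sensitized and 1 in S+P C5 against S+P C4 (Nfat5), and the genes of the whole table that passed went from 8 to 120, from 14 to 199 and from 6 to 33. None of the 14 member fold changes with an unadjusted p under 0.05 changed sign under these alternatives, while Ppp3ca in N+P C5 against Naive, at -0.01, was at 0.01 without the samples with few detected genes and at 0.07 with DESeq2. The log2 fold change of Nfatc1 lay between 1.34 and 1.62 in N+P C5 against Naive and between 1.34 and 1.56 in S+P C5 against Sensitized with 1 sample left out, and that of Nfat5 between 1.91 and 2.41 and between 1.97 and 2.58. The share of Ppp3ca in S+P C5 against Sensitized differed by -15.2 points with CPM in place of CPM per kb (exact permutation, adjusted p = 0.0635, past 0.1), and by -11.6 to -3.97 points with 1 sample left out, where 2 of 10 omissions, of Sensitized replicate 3 and of S+P C5 replicate 4, passed. The cause was not tested. With the replicate number as a block 0 members passed in N+P C5 against N+P C1, S+P C5 against S+P C4 and S+P C7 against S+P C5, while the genes of the whole table that passed went from 1 to 29, from 6 to 0 and from 0 to 1. The part of depth in the zeros of Rcan1 was not tested.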
